A study of Mus musculus with 6 samples.

Results

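The proteasome genes of mouse primary oligodendrocyte precursor cells (mOPCs) were taken as every gene whose symbol starts with Psm, a letter from a to g and a digit. This rule gave 49 of the 23038 genes in the files. It covers the rings of the proteasome core, the regulatory particle, the alternative caps, an inhibitor and the assembly chaperones. One symbol, Psmc3ip, met the rule by its letters only. Its product is a cofactor of meiotic recombination, so that it was counted by the rule and described apart.

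RNA was measured by poly(A) RNA-seq in 6 libraries, 3 from mOPCs transfected with control siRNA (siNC) and 3 from mOPCs transfected with siRNA against Qk (siQk), the gene of the RNA-binding protein Quaking. The cells of both groups were purified from mid-gestation mouse embryos by immunopanning, a capture of cells on antibody-coated dishes, and were collected 72 h after transfection. Each group had 3 biological replicates, and 3 different siRNAs against Qk were used, although the labels do not say which library received which. The strain of the mice is not given in the sources used here.

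The files gave between 58166490 and 141045937 tags per library. Levels are given as RPKM, tags scaled by the exon length of the gene and by the total of the library, and means are given as mean ± SD over the 3 libraries of a group (n = 3). Changes are log2 fold changes of siQk over siNC after TMM scaling, with the standard error (SE), and a gene counted as called where P was below 0.01 with an FDR below 0.1. Qk itself was at 209, 206 and 163 RPKM in siNC and at 51.3, 76.6 and 36.2 RPKM in siQk. Its mean in siQk was 28.4% of that in siNC, and its log2 fold change was -1.98 (SE 0.28, FDR 0.00311).

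The proteasome degrades proteins that carry ubiquitin chains. Its core particle is a barrel of outer alpha rings and inner beta rings, and only 3 of the beta subunits cut proteins. The regulatory particle sits on the end of the barrel. Its lid removes the ubiquitin and the ATPases of its base unfold the substrate and feed it into the core. Together they form the 26S proteasome, and the other members of the family replace subunits, cap the core differently or help to assemble it. The transcription factor Nfe2l1 is known to raise their transcription when proteasome activity falls short. The related factor Nfe2l2 acts in the response to oxidative stress, and both bind antioxidant response elements in DNA.

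The promoters are shown first, since transcripts of Nfe2l2 and Nfe2l1 are among the results described further on. RefSeq windows of GRCm38.p6, from 250 bases before to 50 bases after an annotated start, matched 41 of the 49 members. The letters TGACNNNGC, the core of the antioxidant response element, were found on either strand in the windows of 6 members. This is 14.6% of the members with a window, against 16.9% of the 9975 tested genes that had one. Members had a mean of 1.07 windows per gene and tested genes had 1.28. The stretches below give the match of each of the 6 in capitals, read 5′ to 3′ along the strand of the gene, so that a match on the other strand reads GCNNNGTCA.
Psmb5, chr14:54618024-54618052 (-): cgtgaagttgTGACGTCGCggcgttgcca
Psmb6, chr11:70525338-70525366 (+): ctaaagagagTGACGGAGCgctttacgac
Psmd9, chr5:123228149-123228177 (+): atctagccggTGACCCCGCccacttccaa
Psmc6, chr14:45329587-45329615 (+): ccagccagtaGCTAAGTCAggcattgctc
Psmd12, chr11:107479278-107479299 (+): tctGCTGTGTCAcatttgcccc
Psme4, chr11:30771758-30771786 (+): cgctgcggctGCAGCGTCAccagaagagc

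The first base of the match lay 47 bases before the start in Psmb5, 9 before it in Psmb6, 31 before it in Psmd9 and 7 before it in Psme4. In Psmc6 and Psmd12 it lay 227 and 247 bases before the start. The box CCAAT, the letters bound by the factor NF-Y, was found on either strand in 15 members with a window (36.6%) and in 43.6% of the tested genes with one. A match of letters is not a bound site. Psmg1, the single member whose transcript was called changed, had neither motif in its window. Its 250 bases before the start are given for comparison with those above.
Psmg1, chr16:95990961-95991210 (-): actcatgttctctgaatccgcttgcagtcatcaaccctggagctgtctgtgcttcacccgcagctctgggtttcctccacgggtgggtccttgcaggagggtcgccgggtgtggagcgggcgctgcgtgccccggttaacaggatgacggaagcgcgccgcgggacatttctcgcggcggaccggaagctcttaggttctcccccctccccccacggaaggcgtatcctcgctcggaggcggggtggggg

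Proteasome transcripts differed little between siNC and siQk. Of the 49 members, 45 were above an average logCPM of 0 and were tested. Only 1 of the 45 was called changed (2.22%), against 31.0% of the 12505 genes tested, and it was higher in siQk. By the Wald test of DESeq2 3 were called higher (Psmg1, Psmg4 and Psme4), against 39.1% of all tested genes in either direction. At an FDR below 0.05 alone, 2 were called (Psmg1 and Psmg4), against 36.9% of all tested genes. No member was called lower by either tool. Among the 8569 tested genes with an average logCPM over 4, the range that held 43 of the 45 members, 32.7% were called. At an unadjusted p under 0.05 there were 10 members, 6 higher and 4 lower, against 48.8% of all tested genes. The 4 members that were not tested, Psma8, Psmb8, Psmb9 and Psmb11, are described with their partners.

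The sizes of the changes were small. The median log2 fold change of the 45 members was 0.0055, beside 0.010 for all tested genes, and the values ran from -0.27 for Psmd10 to 0.40 for Psmc3ip. The median absolute log2 fold change was 0.0918 in the members, 0.252 in all tested genes and 0.222 in those with an average logCPM over 4. For 36 members the estimate lay within 0.2 of 0. The 95% interval lay wholly within 0.5 of 0 for 40 of the 45, against 46.3% of all tested genes. The SE was also smaller, with a median of 0.0688 in the members and 0.106 in all tested genes.

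**Figure D1:**
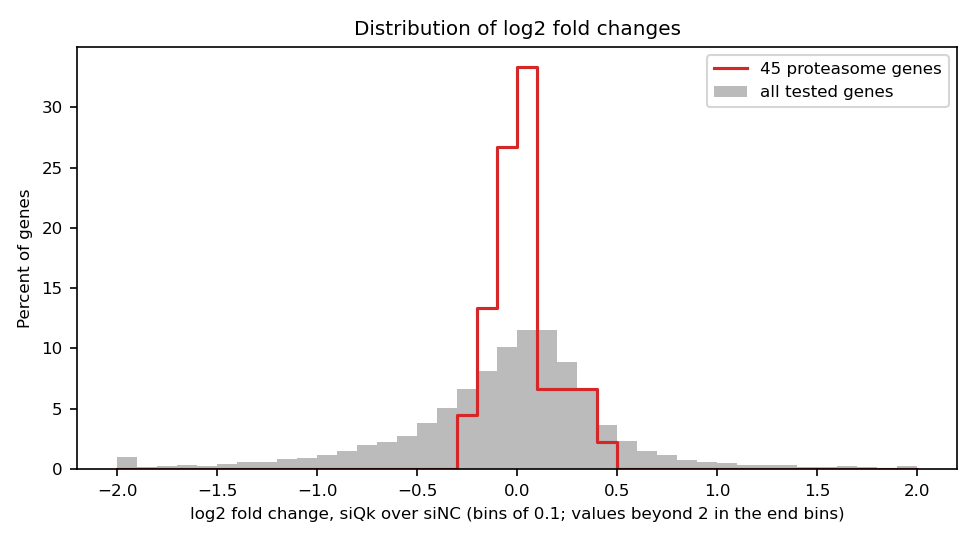
Share of genes (percent, vertical axis) in bins of 0.1 of the log2 fold change of siQk over siNC (horizontal axis), for the 45 tested proteasome genes as a line and all 12505 tested genes as filled bars, with values beyond 2 put in the end bins. The proteasome genes lie between -0.27 and 0.40, and 36 of them lie within 0.2 of 0.

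The direction of these small differences depended on how libraries were scaled. With TMM factors 25 of the 45 members had a log2 fold change above 0. With the library total as the only scale 41 did, and the median of the members was 0.16, the same as the median of all tested genes on that scale. On it 7 members were called, all higher (Psme1 to Psme4, Psmg1, Psmg4 and Psmc3ip), against 34.8% of all tested genes. The share of all tags that fell on the members was 0.630%, 0.619% and 0.690% in siNC and 0.718%, 0.703% and 0.700% in siQk. The mean RPKM was higher in siQk for 41 members, and the ranges of RPKM did not overlap for 23, all of them higher, against 58.3% of all tested genes in either direction and 41.9% higher. After division by the TMM factor the ranges did not overlap for 16 members, 9 higher and 7 lower, and for 54.4% of all tested genes. The ribosomal RNA Rn45s took 3.11% of the tags of siNC replicate 1 and 0.169% to 0.389% in the others, and its part in the difference of the scales was not tested.

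**Figure D2:**
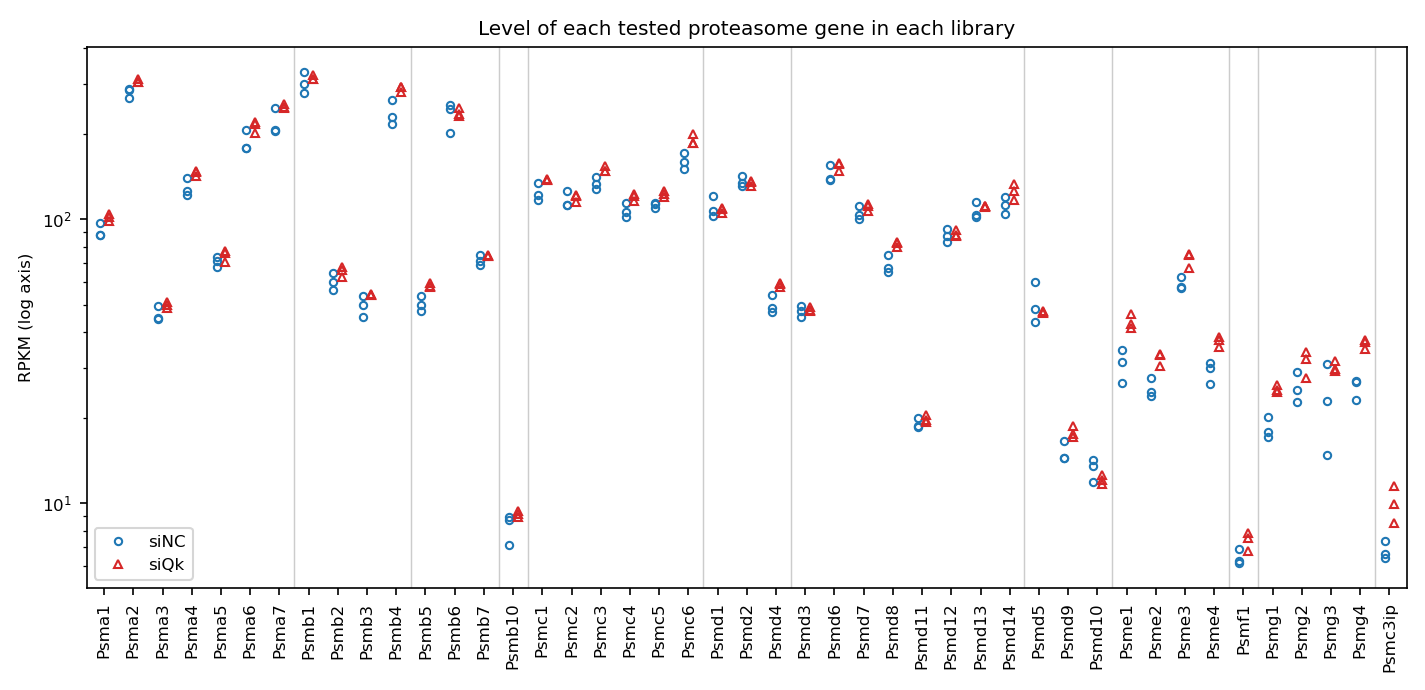
RPKM on a log axis of each of the 45 tested proteasome genes in each library, with circles for siNC and triangles for siQk, 3 of each per gene, and vertical lines between groups of members with one role. The 26S subunits run from 19.04 to 303 RPKM in the mean of siNC, and triangles lie slightly above circles for most genes, with 41 of the 45 means higher in siQk on the RPKM scale.

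The 31 subunits of the 26S proteasome in the list were abundant and close to level between the groups. None of them was called by edgeR or by DESeq2, with 13 estimates above 0 and 18 below it, and 2 of them had an unadjusted p under 0.05. Their log2 fold changes ran from -0.18 to 0.13 around a median of -0.02. All 31 of the 95% intervals lay between 0.765-fold and 1.249-fold. Mean levels in siNC lay between 19.04 and 303 RPKM, and the median of these means was 110 RPKM in siNC against 119 RPKM in siQk. The median RPKM of these subunits after division by the TMM factor was 118, 108 and 116 in siNC and 116, 108 and 111 in siQk. These medians overlap between the groups on that scale. For single genes the ranges did not overlap for 7 of the 31, against 54.4% of all tested genes. Psmc6 and Psmd4 were higher in siQk, and Psmb7, Psmc2, Psmd1, Psmd2 and Psmd13 were lower.

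The 7 alpha subunits, which form the outer rings and the gate of the barrel, had log2 fold changes of -0.08 to 0.04. Psma2 was the most abundant of them at 280 RPKM in siNC and Psma3 the least at 46.3 RPKM. The 4 beta subunits without an active site had log2 fold changes of -0.09 to 0.13. Levels within this ring also differed between genes that are built into it in equal number, from 49.5 RPKM for Psmb3 to 303 RPKM for Psmb1 in siNC. The scale is per length of exon, and levels of transcript do not give levels of protein.

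None of the 3 catalytic subunits had an unadjusted p under 0.05. Psmb5, which carries the chymotrypsin-like site, was at 49.8, 47.6 and 53.6 RPKM in siNC and at 59.4, 58.4 and 57.5 RPKM in siQk. The groups do not overlap in RPKM, and the log2 fold change after TMM scaling was 0.06 (SE 0.07, FDR 0.476). Psmb6, with the caspase-like site, was at 252, 202 and 244 RPKM in siNC and at 232, 235 and 246 RPKM in siQk. The siQk values lie within the range of siNC, with a log2 fold change of -0.12 (SE 0.11, FDR 0.400). Psmb7, with the trypsin-like site, was at 71.3, 69.1 and 74.6 RPKM in siNC and at 74.96, 73.9 and 74.2 RPKM in siQk. Its log2 fold change was -0.10 with an FDR of 0.244. With library size only the estimates of Psmb6 and Psmb7 turned to 0.03 and 0.05.

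In immune cells and after interferon, Psmb8, Psmb9 and Psmb10 take the places of Psmb5, Psmb6 and Psmb7 and form the immunoproteasome. Psmb8 had 0, 3 and 4 tags in siNC and 15, 3 and 9 tags in siQk, and Psmb9 had 0, 2 and 2 tags in siNC and 6, 0 and 1 tags in siQk. Both were below the level tested, so that no fold is given. Psmb10 was at 7.13, 8.71 and 8.94 RPKM in siNC and at 8.94, 9.18 and 9.38 RPKM in siQk (log2 fold change 0.00, SE 0.09, FDR 0.988). Its level was 10.002%, 12.6% and 11.98% of that of Psmb7 in siNC and 11.9%, 12.4% and 12.6% in siQk. The log2 ratio was 0.10 higher in siQk, with p = 0.6 in a two-sided exact permutation test that cannot go below 0.1 with 3 libraries against 3. The ratios of Psmb8 to Psmb5 and of Psmb9 to Psmb6 had no value in libraries with 0 tags. With 0.1 RPKM added to every value, these log2 ratios were 0.23 and 0.05 higher in siQk (exact permutation p = 0.3 and 0.9). After Benjamini-Hochberg adjustment over the 3 ratios on that scale, p was 0.9 for each, Psmb10 to Psmb7 included. Psmb8 and Psmb9 lay below the added value in every library, so that their ratios rest mostly on it.

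The counterparts of other organs had few tags or none. Psma8, which replaces Psma7 in testis, had 0 tags in all 6 libraries, and 3 tags would be 0.0305 RPKM in the smallest of them. Psmb11, which replaces Psmb5 in the thymus, had 3, 33 and 5 tags in siNC and 12, 7 and 15 tags in siQk. In the genome annotation (GENCODE M21, GRCm38) it lies 3410 bases from Psmb5 on chromosome 14.

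The regulatory particle was level as well. The 6 ATPases of the base, Psmc1 to Psmc6, had log2 fold changes of -0.12 to 0.10, and their levels in siNC lay within 1.496-fold of each other, from 107 RPKM for Psmc4 to 160 RPKM for Psmc6. The 8 lid subunits had log2 fold changes of -0.13 to 0.10. Their levels spread further, from 19.04 RPKM for Psmd11 to 144 RPKM for Psmd6, and Psmd14, the enzyme that removes ubiquitin chains, had a log2 fold change of 0.01. The scaffold subunits of the base, Psmd1 and Psmd2, were the 2 subunits with an unadjusted p under 0.05. Psmd1 had means of 110 ± 9.44 and 108 ± 2.71 RPKM in siNC and in siQk (log2 fold change -0.18, SE 0.07, FDR 0.0920). Psmd2 had means of 136 ± 5.82 and 134 ± 3.18 RPKM (log2 fold change -0.17, SE 0.07, FDR 0.0854). Neither met both cutoffs.

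**Figure D3:**
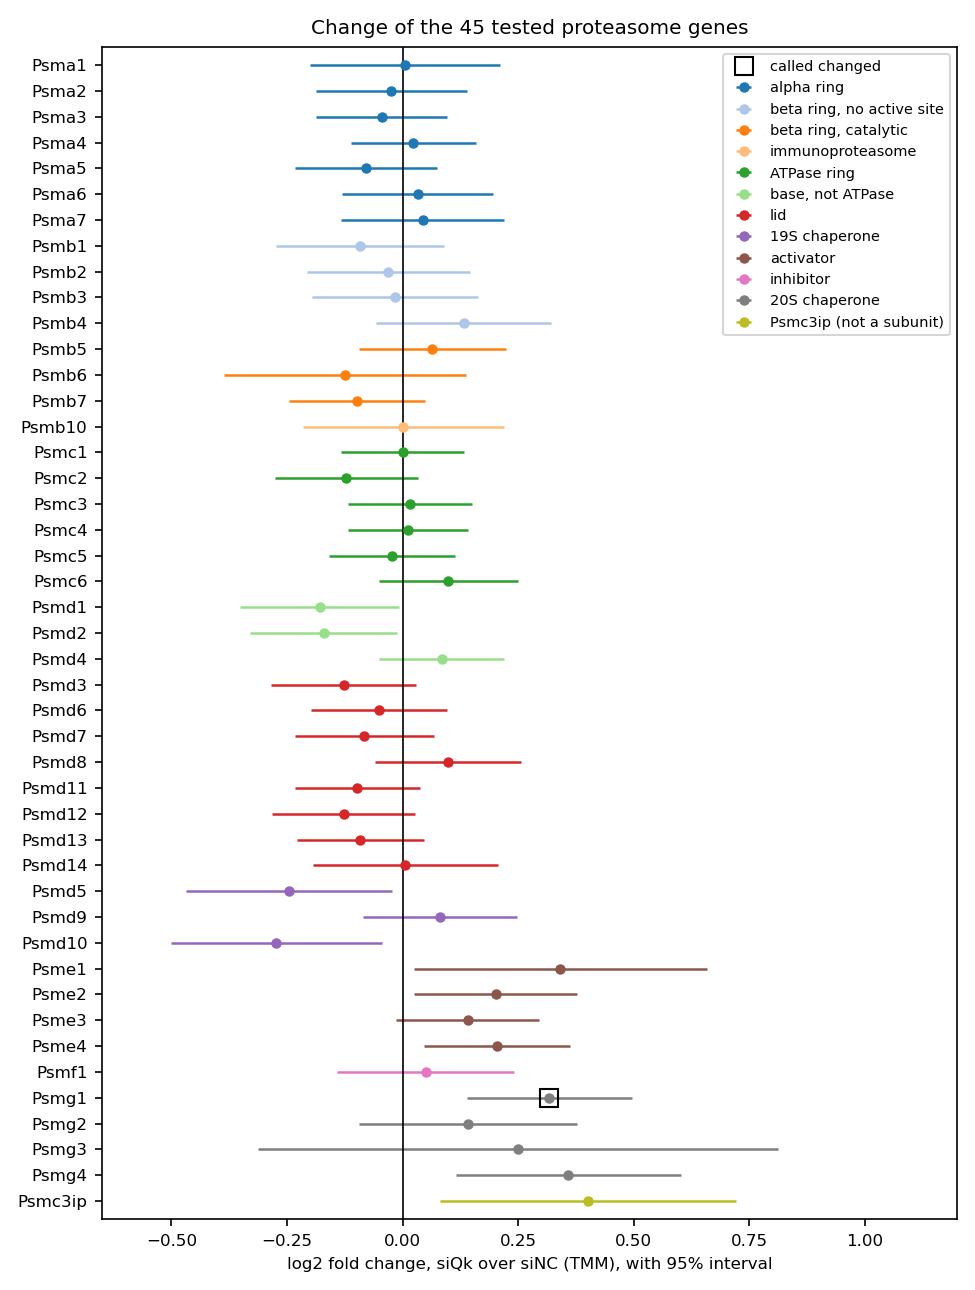
Log2 fold change of siQk over siNC (horizontal axis, TMM scaling) of the 45 tested proteasome genes, with points for the estimates, lines for the 95% intervals and colours for roles, and a square around the single gene called changed, Psmg1. The 31 subunits of the 26S proteasome lie between -0.18 and 0.13, and the activators and core chaperones lie at 0.14 or above.

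Members outside the 26S particle ran over a wider range. For 13 of them, Psmc3ip left out, log2 fold changes lay between -0.27 and 0.36 around a median of 0.14, and 11 were above 0. An unadjusted p under 0.05 was found for 7 of the 13, beside 48.8% of all tested genes. The 4 genes of the chaperones that assemble the core, Psmg1 to Psmg4, were all above 0, from 0.14 to 0.36. Psmg1 was at 17.0, 17.8 and 20.05 RPKM in siNC and at 26.1, 25.1 and 24.7 RPKM in siQk. Every siQk library lay above every siNC library, and its log2 fold change of 0.32 (SE 0.07, 95% interval 0.14 to 0.50) had an FDR of 0.0182 in edgeR's quasi-likelihood test. The gene lies at chr16:95979933-95990960 on the minus strand.

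The call of Psmg1 rested on most of the libraries. It was kept without siNC replicate 3 (log2 fold change 0.36, edgeR FDR 0.0199) and was lost, on the cutoff for P, without any other library. Its log2 fold change was 0.31 without siNC replicate 1 (edgeR FDR 0.0489), 0.29 without siNC replicate 2 (FDR 0.0384), and 0.29, 0.33 and 0.33 without siQk replicates 1, 2 and 3 (FDR 0.0793, FDR 0.0515 and FDR 0.0474). The partner of Psmg3, Psmg4, was at 26.7, 23.1 and 26.9 RPKM in siNC and at 37.6, 34.8 and 36.8 RPKM in siQk. Its log2 fold change of 0.36 (SE 0.10) was the highest among the genes of the proteasome itself and missed the cutoff on P (edgeR FDR 0.0331). Without siNC replicate 1 it met both cutoffs, with a log2 fold change of 0.43. Psmg3 was uneven in siNC, with 22.9, 14.8 and 30.9 RPKM against 29.7, 31.6 and 29.2 RPKM in siQk, and its log2 fold change was 0.25 (SE 0.24, FDR 0.433).

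The activators are caps that open the core without ubiquitin, and all 4 had estimates above 0 without being called. Psme1 and Psme2, the paired subunits of the interferon-inducible cap, lie 5911 bases apart on chromosome 14. Psme1 was at 34.7, 26.5 and 31.3 RPKM in siNC and at 46.3, 42.8 and 41.4 RPKM in siQk (log2 fold change 0.34, SE 0.13, edgeR FDR 0.0840). Psme2 was at 23.9, 24.7 and 27.5 RPKM in siNC and at 33.6, 33.2 and 30.3 RPKM in siQk (log2 fold change 0.20, SE 0.07, edgeR FDR 0.0715). For both genes all siQk libraries lay above all siNC libraries. Without siNC replicate 1, Psme1 met both cutoffs with a log2 fold change of 0.48.

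For the other caps, which act mainly in the nucleus, the siQk libraries again lay above those of siNC. Psme3 was at 57.2, 57.5 and 62.4 RPKM in siNC and at 74.5, 75.2 and 67.2 RPKM in siQk (log2 fold change 0.14, SE 0.07, edgeR FDR 0.128). Psme4 was at 26.4, 31.1 and 29.9 RPKM in siNC and at 38.5, 37.6 and 35.6 RPKM in siQk (log2 fold change 0.20, SE 0.07, edgeR FDR 0.0503). The ranges of all 4 activators stayed apart after division by the TMM factor, beside 27.8% of all tested genes that were apart and higher on that scale. Psmf1, an inhibitor of the core in the test tube, averaged 6.43 ± 0.423 RPKM with siNC and 7.39 ± 0.563 RPKM with siQk (log2 fold change 0.05).

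The chaperones that assemble the base had the lowest estimates. Psmd5 was at 43.3, 48.1 and 59.9 RPKM in siNC and at 46.9, 47.1 and 47.4 RPKM in siQk (log2 fold change -0.25, SE 0.09, edgeR FDR 0.0795). Psmd10, also known as gankyrin, was at 13.5, 11.9 and 14.2 RPKM in siNC and at 12.04, 12.6 and 11.7 RPKM in siQk (log2 fold change -0.27, SE 0.10, edgeR FDR 0.0626). The groups overlap in RPKM for both and do not after division by the TMM factor. Neither was called, although Psmd10 met both cutoffs without siNC replicate 2 (log2 fold change -0.35). The other base chaperone, Psmd9, had a log2 fold change of 0.08. Psmc3ip, which is no proteasome gene, was at 6.43, 6.61 and 7.34 RPKM in siNC and at 11.5, 9.90 and 8.498 RPKM in siQk (log2 fold change 0.40, SE 0.13, edgeR FDR 0.0552). Part of its exons is shared with Mlx.

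Replicates of siQk were closer to each other than those of siNC. The SD of RPKM was smaller in siQk for 38 of the 45 members (84.4%) and for 69.8% of all tested genes. The median coefficient of variation over the 26S subunits was 6.52% in siNC and 2.42% in siQk. In siNC the highest RPKM was that of replicate 3 for 40 members, and after division by the TMM factor it was that of replicate 3 for 25 and of replicate 1 for 19. Replicate 3 of siNC also had the lowest sum of oligodendrocyte markers in its group.

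Neighbours of the family in the pathway were called about as often as all tested genes, and the share differed between lists. It was 0% for interferon-induced antigen processing and 70% for genes outside the proteasome that Nfe2l2 is known to activate. The 5 lists held 60 tested genes, of which 17 were called (28.3%), 4 higher and 13 lower, against 31.0% of all tested genes. Without siQk replicate 1 the count of 17 became 10, and without siQk replicate 2 it became 9. In these fits 19.8% and 21.5% of all tested genes were called, in this order. Among 22 tested genes of other subunits and handlers of the proteasome, 3 were called. Shfm1, a small lid subunit outside the Psm symbols, rose from 336 ± 25.5 to 453 ± 5.21 RPKM (log2 fold change 0.28). That call was lost without any one of the siQk libraries, with log2 fold changes of 0.29, 0.29 and 0.27. Ubqln4 and Ubqln1, which carry ubiquitinated proteins to the proteasome, went in different directions. Ubqln4 rose with a log2 fold change of 0.36, a call lost without siQk replicate 2 (0.33). Ubqln1 fell from 67.2 ± 2.17 to 54.2 ± 1.15 RPKM (log2 fold change -0.46). The core maturation factor Pomp had a log2 fold change of 0.02 and the ubiquitin receptor Adrm1 one of -0.12, and neither was called.

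The factors that act on proteasome genes included the lowest values of the pathway. Of 12 tested, 2 were called higher and 4 lower, against 13.8% and 17.2% of all tested genes. Nfe2l2 was at 21.6, 32.0 and 25.4 RPKM in siNC and at 9.87, 10.3 and 9.33 RPKM in siQk (log2 fold change -1.57, SE 0.13, edgeR FDR 0.000732). Bach1, a repressor that competes for the same elements, fell from 18.8 ± 1.39 to 8.31 ± 0.714 RPKM, with a log2 fold change of -1.33 (SE 0.08, edgeR FDR 0.000348). Ngly1, the glycanase that processes the Nfe2l1 protein, fell with a log2 fold change of -0.48, a call lost when the library total was the only scale (-0.33). Nfyb and Nfyc, subunits of NF-Y, rose with log2 fold changes of 0.36 and 0.34, and the call of Nfyc was lost without siNC replicate 1 (0.30), siNC replicate 3 (0.34), siQk replicate 1 (0.30) or siQk replicate 2 (0.34).

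Nfe2l1, the factor most directly tied to proteasome genes, was close to the cutoff. Its transcript averaged 24.2 ± 3.79 RPKM with siNC and 21.6 ± 0.454 RPKM with siQk (log2 fold change -0.31, edgeR FDR 0.0318). It met both cutoffs in 5 of the 14 alternative fits. With library size only its log2 fold change was -0.16 (edgeR FDR 0.267), and with upper quartile factors it was -0.25. The call was also lost without the filter on low counts (-0.29), without siNC replicate 2 (-0.31) or 3 (-0.23), and without siQk replicate 1, 2 or 3 (-0.33, -0.30 and -0.30).

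**Figure D4:**
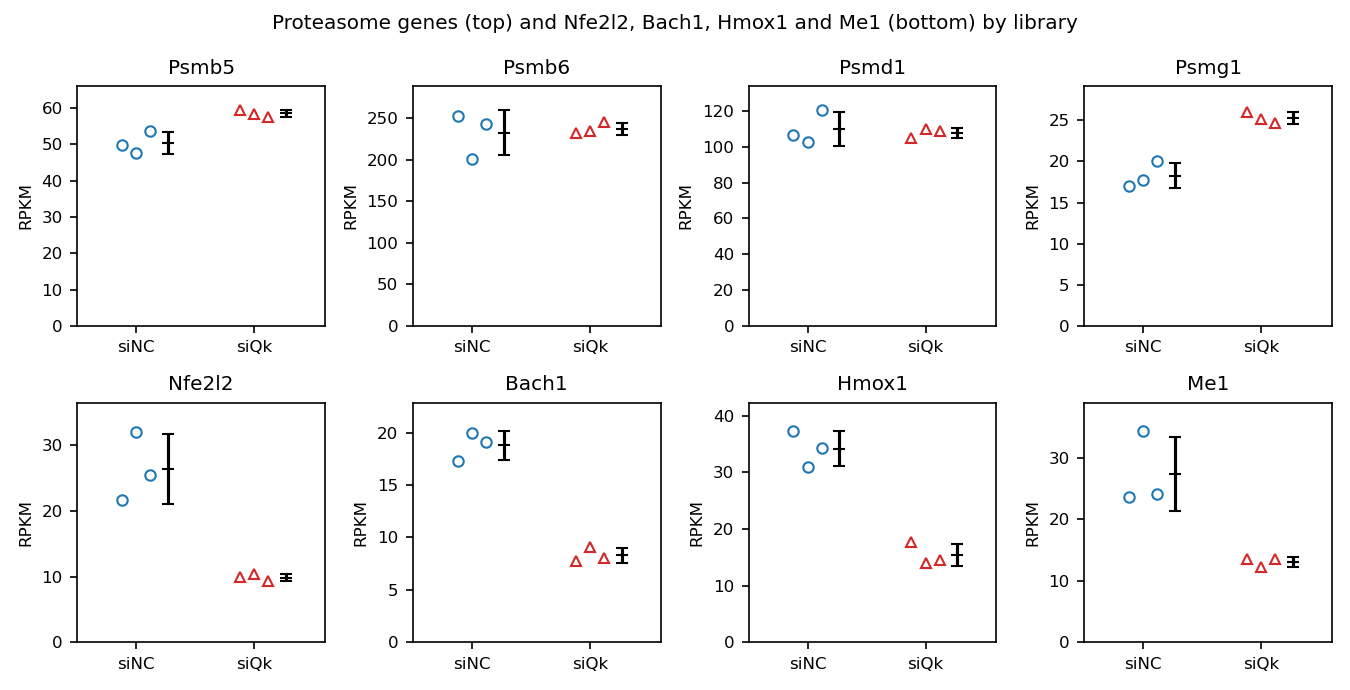
RPKM (vertical axes, from 0) in each siNC library (circles) and siQk library (triangles) of 4 proteasome genes in the upper row and of Nfe2l2, Bach1, Hmox1 and Me1 in the lower row, with the mean and SD over 3 libraries as bars. Nfe2l2 had a mean of 26.3 RPKM in siNC and 9.84 RPKM in siQk, while Psmb6 had means of 232 and 237 RPKM.

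Genes outside the proteasome that Nfe2l2 is known to activate were lower in siQk in most cases. Of 10 tested, 7 were called and all 7 were lower, against 17.2% of all tested genes called lower. Hmox1, which degrades heme, fell from 34.2 ± 3.11 to 15.4 ± 1.97 RPKM (log2 fold change -1.30). Me1, a source of NADPH, fell from 27.4 ± 6.03 to 13.1 ± 0.768 RPKM (log2 fold change -1.21). Srxn1 had a log2 fold change of -0.63, and its call was lost without siQk replicate 2 (-0.63) or 3 (-0.60) and when the library total was the only scale (-0.49). The other 4 called were Slc7a11, Gclc, Sqstm1 and Gclm. In the 14 alternatives they were called 9, 11, 6 and 5 times, in this order. With TMM factors Psmb5 and Psmb6, the catalytic genes whose windows hold the letters of the element, had log2 fold changes of 0.06 and -0.12. The other members with these letters were Psmd9 (0.08), Psmc6 (0.10), Psmd12 (-0.13) and Psme4 (0.20). None of the 6 was called by edgeR, and DESeq2 called Psme4 higher. A part of Nfe2l2 in these values was not tested. Of 10 tested genes of interferon-induced antigen processing edgeR called none, beside 31.0% of all tested genes, and 5 had an unadjusted p under 0.05, beside 48.8%. DESeq2 called 1 of them higher and 1 lower. Log2 fold changes ran from -1.10 for Nlrc5 (edgeR FDR 0.0667) to 0.30 for Irf1 (edgeR FDR 0.0384), and 5 of the 10 were below 0. Of the 15 listed, 5 were below the level tested, namely Tap1, H2-K1, Ifit1, Ifit3 and Isg15.

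Several markers of the cell types that such cultures can hold differed between the groups. Of all tested genes 13.8% were called higher and 17.2% lower. Of 5 OPC markers 3 were called higher, and the markers summed to 639 to 646 RPKM in siNC and 840 to 998 RPKM in siQk. Of 5 oligodendrocyte markers 4 were called lower, with sums of 2356 to 4537 RPKM in siNC and 956 to 1565 RPKM in siQk. The 5 astrocyte markers summed to 160 to 233 RPKM in siNC and 121 to 141 RPKM in siQk, and 2 of the 4 tested were called lower. Neuron markers summed to 2.37 to 3.77 RPKM in siNC and 6.51 to 11.1 RPKM in siQk, with 1 of 3 tested called higher. That was Snap25, with means of 0.751 and 5.18 RPKM in siNC and siQk. Syt1 had means of 1.55 and 3.14 RPKM, Rbfox3 had 0.551 and 0.408 RPKM, and Stmn2 was at 0.03 RPKM in both groups. The 8 microglia markers summed to 0.734 to 3.32 RPKM in siNC and 0.337 to 0.413 RPKM in siQk. Most of the siNC sum was P2ry12, at 0.669, 3.20 and 1.19 RPKM, against 0.152, 0.186 and 0.287 RPKM in siQk. P2ry12 was called lower, and the other 7 were below the level tested. C1qa was at 0 tags in all 6 libraries and Cx3cr1 had at most 2 tags. Fibroblast and vascular markers reached at most 0.148 RPKM. The part of these markers in the values of the proteasome genes was not tested. In bulk libraries fewer cells of a type and less RNA per cell cannot be told apart.

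The 49 members lie on 16 chromosomes. Apart from Psmb5 with Psmb11 and Psme1 with Psme2, only Psmb9 and Psmb8 lie within 50 kb of each other, 9956 bases apart on chromosome 17. The library kit does not mark strand, so that reads of overlapping genes cannot be told apart. Over 10% of exon bases overlapped another gene in 6 members, Psmb5, Psmb7, Psmb8, Psmc3ip, Psmd9 and Psmd13. RefSeq names pseudogenes of Psma5, Psmb5, Psmb6 and Psmb7, none of which has a row in the files, and reads shared with them make those 4 levels uncertain to that degree.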

How the data were processed

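The authors prepared poly(A) libraries with the TruSeq RNA kit v2, which does not mark strand, and sequenced them as 75 nt paired-end reads. The reads were mapped to mm10 with OLego and genes were quantified with Quantas, versions of which are not given in the sources used here. For each library the authors deposited an estimated count of tags per gene, the exon length, and the RPKM value that follows from both and the library total. The sources used here do not state if 1 tag stands for a read or for a pair.

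Estimated counts were rounded to whole numbers. The 12505 genes with an average logCPM over 0 were tested in edgeR 4.0.16 under R 4.3.3 (with limma 3.58.1) by its quasi-likelihood test, with TMM factors and the group as the single term, and p-values were adjusted by Benjamini-Hochberg over all of them. The SE was computed as the size of the log2 fold change over the square root of F, and intervals use the t quantile at the total degrees of freedom. With 3 libraries per group, p-values set the group difference against the spread between libraries, which edgeR estimates with information shared across genes. In siQk this spread may include differences between the 3 siRNAs. On simulated data 99.0% of 196 genes changed by a log2 value of 1 were called, and 8.92% of the calls were false. The simulation gave every gene the same dispersion and held no smaller changes. It therefore does not show how often changes of the size seen in the members would be called. Replicates of a group differed by more than sampling noise (chi-square per degree of freedom of at least 38.0).

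The members and lists were chosen with earlier results of these data known. By rule, values per library were given for called members that changed by 0.5 or more on the log2 scale (none), the catalytic subunits, the activators and Qk. Called genes of the other lists with the 3 highest and the 3 lowest changes were named, with Nfe2l1 and Nfe2l2. The other members given with values were chosen after these were seen. Alternatives were DESeq2 1.42.0, RLE and upper quartile factors, library size only, other filters, an FDR cutoff of 0.05, a replicate block, and leaving out each library. Counting floors of 3 tags cover counting error only. Of the listed genes 66 of 67 had a row in the files. One result among them is not reported here. Gene positions came from GENCODE M21 by Entrez identifier and promoters from RefSeq.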

Additional observations from a re-analysis of the deposited data

How the results depend on the processing

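The count of proteasome genes called, 1 in the main analysis, was 1 with RLE factors or an average logCPM over 1, 2 without the filter on low counts, 2 at FDR below 0.05 alone, 3 with DESeq2, 3 with upper quartile factors and 7 with library size only, and in each of these all were higher in siQk. Across fits that left out 1 library the count was 0 to 2, with 0 to 2 higher and 0 to 1 lower. In those fits 19.8% to 29.7% of all tested genes were called. With the replicate block the count of proteasome genes was 0. Deviations from the group mean were not positively correlated between samples of the same replicate number (-0.05, -0.15 and -0.34). With 3 libraries per group this check cannot exclude that the samples were paired. Under the block 22.4% of all tested genes were called in place of 31.0%. The median log2 fold change of 0.0055 became 0.16 with library size only and ran from -0.02 to 0.03 without 1 library. The count of 17 companion genes called was 11 with the replicate block and 9 to 17 without 1 library, beside the shares of all tested genes given above. The share of tags on the members was 0.625% to 0.660% in siNC and 0.701% to 0.711% in siQk without 1 library, and the log2 ratio of Psmb10 to Psmb7 was 0.00 to 0.17. Of 312 refitted log2 fold changes of the 24 named genes, 261 kept direction and side of the cutoffs, 32 lost the call, 12 gained it and 7 turned sign, all of them in genes not called. With library size only Psmb6 turned from -0.12 to 0.030 and Psmb7 from -0.10 to 0.053. Psmb10, at 0.0021, turned to -0.0082 with DESeq2, -0.0052 with RLE factors and -0.00039 with average logCPM over 1, and ran from -0.057 (without siNC replicate 1) to 0.035 (without siNC replicate 3) when 1 library was left out, with -0.021 without siQk replicate 3. Psmb8, Psmb9, Psmb11 and Psma8 had 33 tags or fewer in every library and were below the level tested in the main analysis. No fold is given for them. The cause of these shifts was not tested.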
